A study of Mus musculus with 8 samples.

Results

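Control siRNA LB-22 cells, the baseline of a Wt1 knockdown study, are described here from the 4 arrays titled as control siRNA, out of 8 arrays in the series. LB-22 is a single immortalized line derived from embryonic mouse kidney. The cells had been expanded at 33 °C in DMEM-F12 with fetal bovine serum at 10%, and the medium also held interferon gamma at 10 U/ml, insulin and transferrin at 5 µg/ml each, prostaglandin E1 at 25 ng/ml, hydrocortisone at 100 nM, and basic FGF at 2 ng/ml with triiodothyronine at 2 nM. They then received 25 pmol of a scrambled siRNA with 25 µl of Lipofectamine for 6 h, were kept at 37 °C from that point without interferon, and gave total RNA at 48 h. The 4 arrays share this treatment and carry no other labelled difference, and the 4 arrays of cells given Wt1 siRNA were not used. The sources used here do not give how the line was immortalized or whether replicates were separate cultures, so the spread between arrays may be technical.

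The kidney forms from intermediate mesoderm, in which a cap of nephron progenitors around the ureteric bud turns into glomeruli and tubules while stroma fills the space between them. Mesothelium is the flat cell layer that covers the kidney and lines the body cavities. It carries keratins like an epithelium together with vimentin like a mesenchymal cell, and it expresses Wt1, a zinc finger transcription factor also made by nephron progenitors, podocytes and cells of the gonad.

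Each array reports a MAS5 signal, a linear intensity, for 45101 probe sets, and the brightest named probe set stood for each of 18193 genes. Signals of different genes depend on their probes as well as on their transcripts, so ranks order signals and not transcript numbers. Background was read from the 27 Bacillus subtilis control probe sets, and the highest of them on each array (131 to 227) is called the bacterial level. Of the 18193 genes, 11798 (64.8%) exceeded it on all 4 arrays, and 3431 (18.9%) were at or under it on all 4. That level was lenient, because 9 of 39 olfactory receptor genes also passed it. A stricter level was therefore given beside it, the 99th percentile of the olfactory receptor genes on each array (506 to 653), which 9163 genes (50.4%) exceeded on all 4. Genes past both levels are called clearly detected and genes past the bacterial level alone weakly detected. The genes just inside the bacterial level were Gm15408 and Tnk1 and just outside were Nr2e1 and Pilrb1. The trimmed mean was 1500 on all 4 arrays, which the common scaling sets. The median over probe sets was 279.1 on array 3 and 336.1 to 346.1 on the other arrays, and array 3 also had the lowest bacterial level, 131. Pearson's r over the 11798 genes ran from 0.982 to 0.988 between pairs of arrays, as a description.

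**Figure D1:**
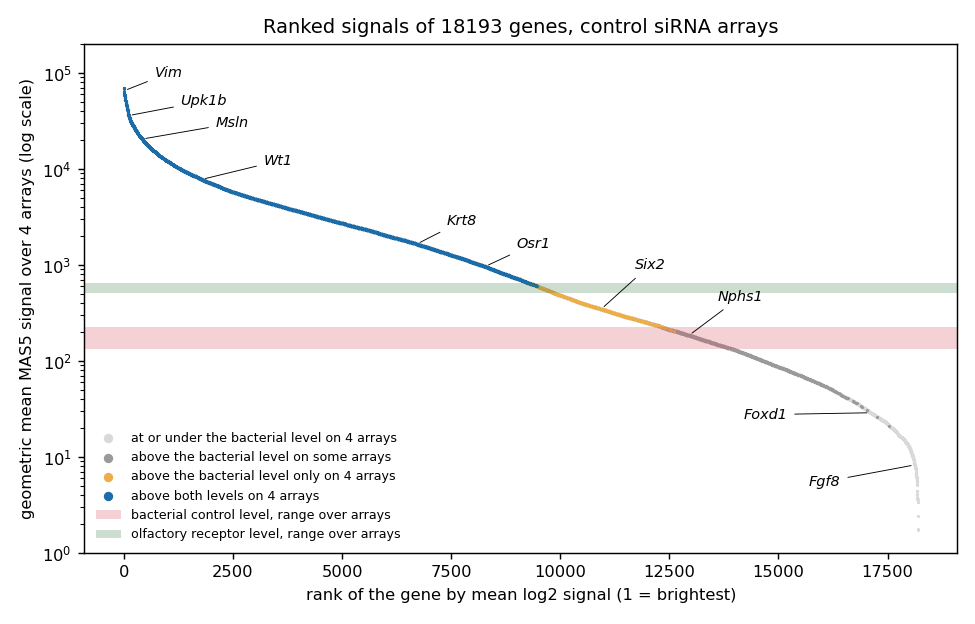
Geometric mean MAS5 signal (log scale) of 18193 genes against their rank over the 4 control siRNA arrays, coloured by detection, with the range of both background levels over the arrays as bands. Upk1b, Msln and Wt1 lie at ranks 111, 420 and 1788, whereas Six2 lies between the bands and Fgf8 far below them.

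Mesothelial markers had the highest median signal of the 18 lineage lists. The list shares Wt1, Msln, Upk3b, Upk1b, Krt18, Krt19 and Efemp1 with the marker genes set for the line. Those genes were chosen with earlier results of these data known, so the place of the list is not independent of that choice. Of 24 mesothelial genes on the array, 22 exceeded the bacterial level on every array and 17 were clearly detected, against 64.8% and 50.4% of all genes, and the median member stood at the 82.1st percentile of signal. Upk1b, which encodes a uroplakin membrane protein, read 32168, 38909, 39792 and 33397 on arrays 1 to 4, a mean of 36066 ± 3842 (SD, n = 4), and values after ± below are the SD over these 4 arrays. The related uroplakin gene Upk3b read 14397, 15963, 16208 and 14415 (15246 ± 975). Msln encodes mesothelin, a surface glycoprotein by which mesothelium is usually recognized, and it read 21569, 20129.6, 20877 and 19263 (20459.7 ± 991). All 3 genes varied little, with SDs of log2 signal of 0.15, 0.09 and 0.07.

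Wt1 itself was clearly detected at 8397, 7129, 8197 and 7423 (7787 ± 607), rank 1788 of 18193. It was lowest on array 2 and highest on array 1, and its log2 SD of 0.11 was below the median of 0.13 for clearly detected genes. Efemp1, encoding the matrix glycoprotein fibulin-3, was brighter by signal at 27769, 32455, 34423 and 27993 (30660.1 ± 3309), with arrays 2 and 3 above arrays 1 and 4. Bnc1, a zinc finger gene of mesothelium and stratified epithelia, read 6381, 7587, 8383 and 5987, and Gpm6a, a membrane glycoprotein gene, read 8438, 10488, 10596 and 9079. Lrrn4, a leucine-rich repeat membrane protein gene, ranged more widely at 3684, 5199, 6559.5 and 4483, and Aldh1a2, which makes retinoic acid, read 3651, 4086, 4629 and 4337. Array 3 held the highest value for 12 of the 17 clearly detected members and array 1 the lowest for 8.

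Keratins marked the same list unevenly. Krt18 and Krt19 encode simple-epithelium keratins and read 10461, 10374, 10935 and 10173 (10486 ± 323) and 7669, 7562, 7716 and 6955 (7476 ± 353). Krt8, the usual partner of keratin 18 in filaments, was dimmer by its probe set at 1890.1, 1152, 1879.8 and 1788, with array 2 well below the other arrays. Other Krt8 probe sets were not lowest on array 2, and the dimmest of them was highest there, at 678.5. Krt7 was only weakly detected at 251, 272, 226 and 208, close to the bacterial level. Among other members, Cdh3 (P-cadherin) and Sulf1 (a heparan sulfatase) averaged 5631 ± 727 and 5468 ± 707. The mesothelial mucin gene Muc16 and the Wnt agonist gene Rspo1 were weakly detected at 551 and 562, as were Cldn15 and Gpc3. The list members under the bacterial level on at least some arrays were Dpp4 (119, 87.2, 213 and 41.6) and Tgm1 (21.6, 77.3, 36.5 and 17.6), a surface peptidase and a transglutaminase.

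**Figure D2:**
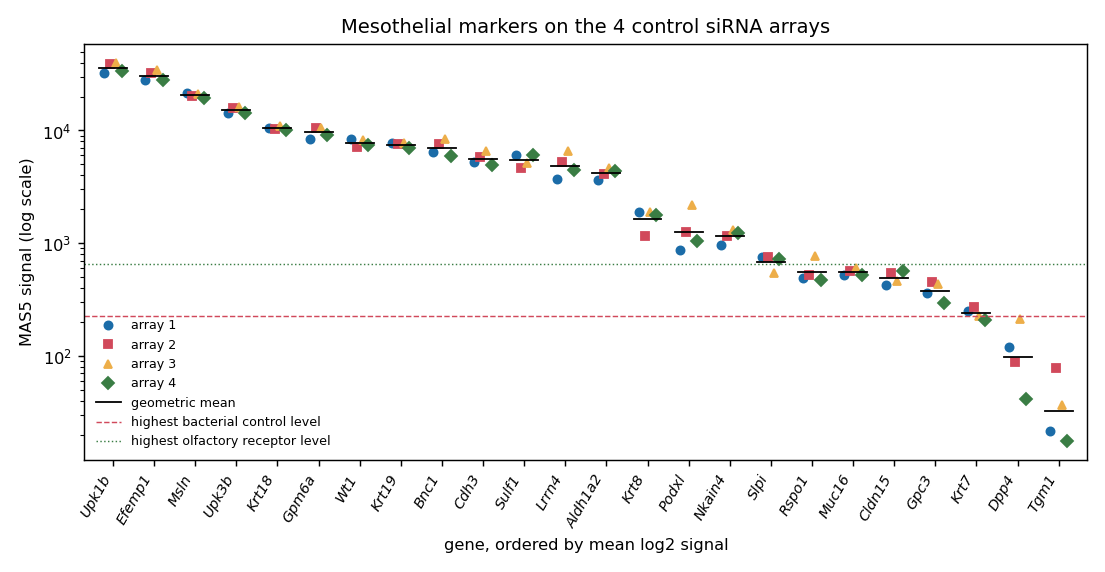
MAS5 signals (log scale) of 24 mesothelial markers on each of the 4 control siRNA arrays, with the geometric mean as a bar and the highest array's bacterial and olfactory receptor levels as lines. The first 13 genes, from Upk1b to Aldh1a2, lie at 3651 or more on every array, while Dpp4 and Tgm1 lie at or near background.

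The other marker genes set for the line were cell cycle and matrix genes. Ccnd1, encoding the G1 cyclin D1, read 28707, 31855, 28319 and 30945 (29956 ± 1715). Fbln5, an elastic fibre protein gene, was among the steadiest at 12950.4, 12995, 13475 and 12831, a log2 SD of 0.03. Dcn, encoding the small proteoglycan decorin, was the most variable of these 10 markers at 4874, 6439.6, 7394 and 4470.2, a log2 SD of 0.34, again with arrays 2 and 3 above arrays 1 and 4. All 10 markers were clearly detected, against 50.4% of all genes, and the array sums over the 10 ran from 167865 to 187335. The markers were chosen with earlier results of these data known, so this count describes the choice and is not independent evidence.

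Nephron progenitor genes were mostly dim. Of 12 such genes on the array, 4 (33.3%) passed the bacterial level and 2 (16.7%) were clearly detected. The shares of all genes were 64.8% and 50.4%, and the median member stood at the 18.6th percentile. Six2, the transcription factor that keeps progenitors in the cap, read 303, 434, 246 and 446 and was weakly detected. Cited1, a transcriptional coactivator of the early cap, read 42.1, 36.1, 22.5 and 23.3, and Gdnf, the ligand that draws out the ureteric bud, read 39.1, 22.5, 18.8 and 18.8, both under the bacterial level on all 4 arrays. Eya1, a phosphatase and partner of Six2, was weakly detected at 257, 293, 375 and 356. The clearly detected members were Osr1, an early intermediate mesoderm factor (1371, 924, 667 and 1015), and Hoxa11 (1029.7, 925, 971 and 958). Osr1 was variable, with array 1 highest and a log2 SD of 0.43, while Hoxa11 was steady at 0.06.

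Genes of the early nephron were split. Jag1, a Notch ligand, was clearly detected at 3571, 3635, 3924 and 3747, and the receptor genes Notch2 and Notch1 averaged 4089 ± 585 and 2528 ± 431. Wnt4, the signal that starts the conversion of progenitors into epithelium, was clearly detected at 1265, 1348, 1517 and 1186. Pax8, a factor of the renal lineage, stayed at 258, 232, 143 and 231, within a small margin of the bacterial level, and Lhx1 and Fgf8 were near background at 47.6 and 8.75. Emx2, a homeobox gene of the urogenital tract, was clearly detected at 888, 1042, 1134 and 1085. In all, 9 of 11 list genes (81.8%) passed the bacterial level against 64.8% of all genes, Ccnd1 being counted in this list as well. Clearly detected were 6 (54.5%), near the 50.4% of all genes.

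Podocyte genes were split between dim and bright members. Nphs1, encoding the slit diaphragm protein nephrin, passed the bacterial level on arrays 2 and 3 but not on arrays 1 and 4 (132, 358, 155 and 158). The receptor phosphatase gene Ptpro was weakly detected at 236, 286, 189 and 385, and the channel gene Trpc6 was near background at 3.40, 41.3, 2.90 and 24.5. By contrast, Actn4 (an actin crosslinker), Cd2ap (an adaptor at the slit diaphragm and elsewhere) and Tjp1 (zonula occludens 1) averaged 20849.8 ± 534, 14835 ± 1281 and 8989.7 ± 225, and all are used by many cell types. Podxl, encoding podocalyxin, was clearly detected but ranged from 872.5 to 2177 (872, 1255, 2177 and 1047), and Synpo, encoding the actin-associated synaptopodin, was at 2119.6, 1951, 3529 and 1562. Array 3 was highest for both by these probe sets, with log2 SDs of 0.57 and 0.50. The other probe set of each gene was lowest on array 3, at 198 for Podxl and 84.9 for Synpo. In counts, 11 of 16 podocyte genes (68.8%) passed the bacterial level and 7 (43.8%) were clearly detected, near the 64.8% and 50.4% of all genes.

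Of 17 ureteric bud and collecting duct genes, 11 (64.7%) passed the bacterial level, near the 64.8% of all genes, and 5 (29.4%) were clearly detected against 50.4%. Ret, the Gdnf receptor of the bud tip, and its coreceptor gene Gfra1 were weakly detected at 407, 339.6, 242 and 276 and 258, 219, 152 and 364, and Wnt11 likewise at 288, 418, 484 and 607. Wnt9b, the bud signal to the cap, read 198, 141, 166 and 88.2, no more than 198 on any array. The clearly detected members were Epcam, Gata3, Etv5, Wnt7b and Krt8. Epcam, an epithelial surface protein gene, was the least steady gene among all clearly detected list members at 1588, 2102, 1227 and 4069, 3.32 times higher on array 4 than on array 3, and its other probe set was near background. Gata3, a bud transcription factor also used elsewhere, read 1340.1, 762, 924 and 668, and Etv5, an ETS factor induced by FGF and Ret signalling, read 2712, 2166, 2439 and 2448.

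Markers of differentiated tubules were dim as well. The phosphate transporter gene Slc34a1, which defines the proximal tubule, read 174, 119, 119 and 285, and the organic anion transporter gene Slc22a6 read 62.5, 103, 24.6 and 88.6. Of 16 proximal tubule genes 6 (37.5%) passed the bacterial level and 3 (18.8%) were clearly detected, against 64.8% and 50.4% of all genes. The clearly detected ones were Lrp2 (1519.6, 1184, 954 and 1314), Slc4a4 (1021, 945, 975 and 1196) and Kap (1361, 996, 1200.5 and 1194). Lrp2 encodes the endocytic receptor megalin, Slc4a4 a bicarbonate cotransporter and Kap an androgen-regulated kidney protein, whose other probe set was near background. None of 10 genes of the loop of Henle and distal tubule was clearly detected and 3 were weakly detected (Egf, Trpm6 and Pvalb), with Umod, encoding uromodulin, at 121, 54.4, 26.2 and 83.5 and the salt transporter gene Slc12a1 at 199, 319, 31.9 and 208.

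**Figure D3:**
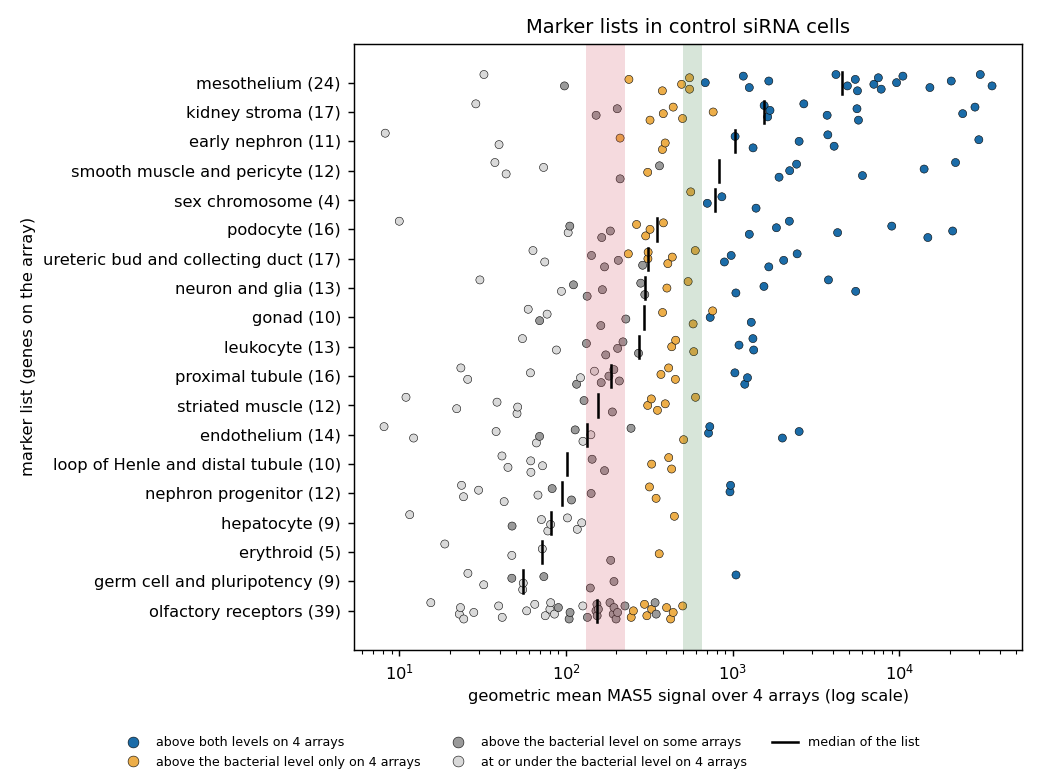
Geometric mean MAS5 signal (log scale) of each gene in 18 marker lists and in the olfactory receptor reference, with list medians as black bars, detection by colour, and the bacterial level (left band) and olfactory receptor level (right band) over the arrays shaded. The mesothelial list has 17 genes past both levels, and the median of the nephron progenitor, loop of Henle, hepatocyte, erythroid and germ cell lists lies under the left band.

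Stromal and contractile genes were a mixed set. Of 17 kidney stroma genes, 14 (82.4%) passed the bacterial level against 64.8% of all genes, and 9 (52.9%) were clearly detected, near the 50.4% of all genes. Foxd1, the factor that defines cortical stroma, was near background at 16.1, 169, 33.1 and 7.60. The platelet-derived growth factor receptor genes were low, with Pdgfra at 162, 175, 228 and 262 and Pdgfrb weakly detected at 399, 269.6, 412 and 486. The bright members were matrix genes together with the homeobox gene Meis2 at 5574 ± 456 and Tbx18, a T-box factor of ureteral mesenchyme and epicardium, at 1589, 1598, 1797 and 1506. Acta2, encoding smooth muscle actin, read 20295, 22219, 23110.2 and 21233 (21714 ± 1218), and Tagln, encoding the actin-binding transgelin, read 6268, 5539.7, 6176 and 6038 (6005 ± 324). Smtn, Myl9, Tpm2 and Mcam were the other clearly detected smooth muscle and pericyte genes, with Tpm2 at 14102. Of the dimmer members, Myh11 and Cnn1 were near background at 82.8 and 41.3, and Des was weakly detected at 384, 289, 243 and 337. Of 12 genes in this list, 7 (58.3%) passed the bacterial level and 6 (50%) were clearly detected, against 64.8% and 50.4% of all genes.

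Lists for other cell types that a culture could hold were mixed, with several defining markers near background. Of 14 endothelial genes 5 (35.7%) passed the bacterial level and 4 (28.6%) were clearly detected. Of 13 leukocyte genes 6 (46.2%) passed it and 3 (23.1%) were clearly detected, where the shares of all genes were 64.8% and 50.4%. For endothelium, Pecam1 read 58.9, 71.9, 30.3 and 152 and Cdh5 read 192, 57.1, 116 and 201, both under the bacterial level on every array, as were Tek, Tie1, Erg and Vwf. The other probe set of Cdh5 passed the level on array 3 alone, at 140.3. The clearly detected endothelial list members were Cd34 (2395, 2339.5, 2999 and 2329), Kdr (2315, 1854, 1789 and 2022), Egfl7 and Eng, genes that are not limited to endothelium, and the receptor gene Flt1 was weakly detected by all 4 of its probe sets. The leukocyte gene Ptprc (CD45) read 117, 84.6, 7.90 and 116 and Itgam read 89.4, 180.2, 30.5 and 119.7, under the bacterial level, whereas Csf1r (1232, 1719, 1174 and 1225), Cd14 (1360.0, 1592, 1519.6 and 966) and Cd68 (1135, 1091, 1082 and 1055) were clearly detected and Adgre1, Lyz2 and Laptm5 weakly detected. In a bulk sample, fewer cells of a type and less RNA per cell cannot be told apart. The part of other cells in these signals was not tested.

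Summed over each list, the endothelial signals ran from 6708 to 8479 per array and the leukocyte signals from 6423 to 6673, sums that depend on the probes and the number of genes and do not measure the share of a cell type. Of the remaining lists, 0 of 5 erythroid, 0 of 9 hepatocyte and 0 of 12 striated muscle genes were clearly detected, with 1, 1 and 5 weakly detected. For these lists and those below, the shares of all genes were 64.8% past the bacterial level and 50.4% clearly detected. The neuronal and glial list had 4 of 13 clearly detected (Map2, Ncam1, Mbp and Tubb3), all expressed outside the nervous system too, while Snap25 averaged 41.5. Of 10 gonad genes 5 passed the bacterial level and 2 were clearly detected, namely Gata4, shared with mesothelium and heart, at 1353, 1146, 1219 and 1471 and Star, which brings cholesterol to steroid synthesis, at 786.5, 801.3, 588.0 and 775.7. Foxl2 and Nr5a1, transcription factors of the gonad, were weakly detected at means of 786 and 396, each with another probe set that did not pass on all arrays, and Amh was near background at 70.0. Among 9 germ cell and pluripotency genes 1 was clearly detected, Ddx4 (the germ cell helicase vasa), at 1107, 1001, 1028 and 1051, while Pou5f1 and Nanog averaged 59.7 and 53.4. The Y-linked genes Eif2s3y, Uty and Kdm5d were clearly detected at 1385, 862 and 708. Xist, the RNA that coats the inactive X chromosome, was weakly detected at 606, 634, 384 and 664, and 2 of its 3 probe sets were near background.

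Mesenchymal cadherin genes were clearly detected, as was Cdh3 (P-cadherin) at the level given above, and the E-cadherin gene was not. Cdh2, encoding the mesenchymal N-cadherin, read 22581, 23331, 25410.2 and 21940.2 (23316 ± 1508), and Cdh11 (OB-cadherin) averaged 5204 ± 185. Cdh1, encoding the epithelial E-cadherin, was weakly detected at 332, 351, 471 and 504. Tight junction and desmosome genes with broad expression were clear, with F11r at 21180.0 ± 2367, Tjp1 at the level given above and Jup (plakoglobin) at 4307 ± 401. The claudin genes Cldn1, Cldn3, Cldn4, Cldn6 and Cldn7 did not exceed the bacterial level on all 4 arrays, nor did the epithelial splicing factor gene Esrp1, at 7.10, 13.6, 6.80 and 11.3. In counts, 6 of 19 epithelial junction genes (31.6%) and 16 of 20 mesenchymal genes (80%) were clearly detected, against 50.4% of all genes.

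Within the mesenchymal list, Vim (vimentin) was the fourth brightest gene of all at 56763, 71588, 69691 and 63474 (65379 ± 6709). The repressor gene Snai2 (Slug) read 8842, 8832, 10419.7 and 9336, Zeb1 averaged 3086 ± 280.0 and Twist1 averaged 2181 ± 277, whereas Snai1 was weakly detected at 764, 504, 468 and 697. The members not detected on every array were Thy1 (213, 250.4, 306 and 289), Fap (202, 156, 181 and 166) and Postn (183, 157, 155 and 44.3), which encode a surface glycoprotein, a protease and a matrix protein of fibroblasts. Fn1 (fibronectin) and the collagen-crosslinking gene Lox averaged 21833 ± 2869 and 14576 ± 1179.

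Most matrix genes were clearly detected, and few were among the brightest 100, with Col4a1 at rank 69. Basement membrane collagen IV was carried by its most widespread pair of chains, with Col4a1 at 41219.5, 42791, 48432 and 42523 (43741 ± 3202) and Col4a2 at 18336, 16314, 17461 and 16528 (17159.7 ± 929). Col4a5 (14667 ± 790.2), a chain of the glomerular and smooth muscle networks, and Col4a6 (2316 ± 232), of the latter, were also clear, and the glomerular chains Col4a3 (536, 556, 381 and 457) and Col4a4 (352, 416, 404 and 387) were weakly detected. Of the laminin chains, Lamc1, Lamb1 and Lama5 were clear at 5796, 3864 and 2778, while Lama1, Lama4 and Lamb3 were near background. Nid1 (nidogen 1), Hspg2 (perlecan) and Agrn (agrin) averaged 14848 ± 994, 5487 ± 308 and 4187 ± 457.

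Fibrillar collagen was represented by Col3a1 at 25386, 29698, 33702 and 25506 (28573 ± 3964), Col1a1 at 25427, 25984, 21285 and 23362 (24014 ± 2141) and Col5a2 at 17018 ± 765. Cartilage collagen Col2a1 was near background at 104, 74.0, 27.0 and 28.6. Col6a1 and Col6a2, neighbouring chains of beaded-filament collagen, followed the same order over the arrays, at 5789.6, 7865, 9992 and 6287 and 2570.1, 3687, 4696 and 3206, with array 3 highest and array 1 lowest. Elastic fibre genes were uneven, as Fbln2 averaged 23060.2 ± 1867 and Eln, which encodes elastin itself, 755 ± 110.4. Of 24 genes in this list 21 (87.5%) passed the bacterial level and 18 (75%) were clearly detected, against 64.8% and 50.4% of all genes.

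Transcription factors of mesoderm other than Wt1 were led by the Hippo pathway. Wwtr1 (TAZ), Yap1 and their DNA-binding partner Tead1 read 11932, 11890.2, 13018 and 11496, 10926, 11766, 13498 and 11986 and 10508, 10386, 11582 and 9954, and the gene of the endoderm and mesoderm factor Gata6 read 10120.3, 9415, 10114 and 9925 (9894 ± 332). Tbx20 and Hand2, known best from the heart and lateral mesoderm, were clear at 4938, 4382, 4981 and 4798 and 3745, 3448, 4602 and 3771. The nuclear receptor gene Nr2f2 (COUP-TFII) averaged 2738 ± 268 and Six4 1843 ± 168. Osr2, Sall1, Lhx1 and Foxd1 were near background, and Lmx1b was too, except that its other probe set passed the bacterial level on array 3 at 145.2, while Foxc2 and Sox9 passed the bacterial level on some arrays only. Of the 33 factors named on the array, 26 (78.8%) passed the bacterial level and 21 (63.6%) were clearly detected, against 64.8% and 50.4% of all genes.

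Hox genes, which record position along the body axis, were detected from all 4 clusters. Of 33 Hox genes, 21 passed the bacterial level and 16 were clearly detected, shares of 63.6% and 48.5% beside 64.8% and 50.4% of all genes. The brightest by signal was Hoxc8 at 5773, 4229.8, 4646 and 5646, followed by Hoxc6 (4295, 4208, 3267 and 4617), Hoxa9 (3429.5, 3877, 4113 and 4192) and Hoxc10 (4164, 3371, 3507 and 3518). In the A cluster Hoxa5, Hoxa9, Hoxa10 and Hoxa11 were clear, and in the D cluster Hoxd8 and Hoxd9. Hoxb7, often used to mark the ureteric bud, read 276, 183, 148 and 241, above the bacterial level on some arrays only. The terminal genes Hoxa13, Hoxb13 and Hoxd13 averaged 257, 274 and 211, all below the olfactory receptor level, and Hoxc13 was clear at 1727, 1201, 1409.5 and 1767.

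Most receptor genes for the supplements of the culture medium were detected, with 15 of 20 (75%) past the bacterial level and 13 (65%) clear, against 64.8% and 50.4% of all genes. Interferon gamma binds a receptor of 2 chains, and Ifngr2 averaged 5567 ± 523 and Ifngr1 2238 ± 377. For FGF, Fgfr1 read 1759.6, 1605, 1704 and 1813 and Fgfr2 1828, 1856, 2148 and 1786, Fgfr3 was clear at 803 ± 159, and Fgfr4 was one of the most variable genes at 494, 384, 137 and 689. Among receptors for prostaglandin E, Ptger4 was clearly detected at 1793, 1559, 2237 and 1761, while Ptger1, Ptger2 and Ptger3 were near background at 118, 74.3 and 106. Hydrocortisone acts through the glucocorticoid receptor, whose gene Nr3c1 read 6522, 5328, 6239 and 6341, and the mineralocorticoid receptor gene Nr3c2 was near background at 41.9. The transferrin receptor gene Tfrc read 7729.9, 7244, 7606 and 6759, the insulin receptor gene Insr 1103, 1356, 1584 and 1202, its relative Igf1r 5302, 6022, 7512 and 5289, and the thyroid hormone receptor genes Thra and Thrb averaged 1860.1 and 381, of which Thrb was weakly detected.

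Interferon gamma response genes were bright in cells kept for 48 h without added interferon. Of 28 such genes, 27 passed the bacterial level and 26 were clearly detected, against 50.4% of all genes, with the median member at the 94.5th percentile. Genes of antigen presentation led the list. B2m, the shared light chain of class I molecules, read 45831, 58271, 57717 and 55641 (54365 ± 5801), and the class I heavy chain gene H2-K1 read 44483, 55986, 52367 and 51754 (51148 ± 4819.6). H2-D1 averaged 46504 ± 3605, and since class I genes are near copies of one another, their probe sets may share signal. The class II genes, usually limited to antigen-presenting cells unless interferon gamma is given, were clear, with Cd74 (the invariant chain) at 22902, 23301, 24907 and 22002, H2-Eb1 at 11309, 12146, 14496 and 12006 and H2-Aa at 10187, 12760.3, 13318 and 11167. Their transactivator gene Ciita was weakly detected at 584, 482, 599.7 and 606.

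The immunoproteasome subunit genes Psmb8, Psmb9 and Psmb10 averaged 29365 ± 3742, 20619 ± 1105 and 20328 ± 1312, and the peptide transporter gene Tap1 14228 ± 943. Interferon-inducible GTPases were as bright, with Igtp at 30447, 36197, 37950.1 and 35438, Gbp2 at 25594, 30874, 31732 and 29096 and Irgm1 at 20589, 24602, 23673 and 23119.5. A further gene of that family outside the list, Iigp1, ranked 13th of all genes at 51484, 66458, 62823 and 57501. Irf1, the early transcription factor of the response, read 17209, 17704, 18907 and 18285 (18026 ± 733), and Stat2 read 4602, 4436, 2954 and 4524, low on array 3. The other probe set of Stat2 was instead highest on array 3, at 1936, 1896, 2350 and 1879. The feedback inhibitor genes Socs3 and Socs1 averaged 5478 ± 573 and 1086 ± 269. Chemokine genes differed, since Cxcl10 was clear at 3549, 3560.0, 3327 and 3286 and Cxcl9 was not, at 165, 178, 135 and 76.0. No array of cells grown throughout without interferon was analysed here.

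**Figure D4:**
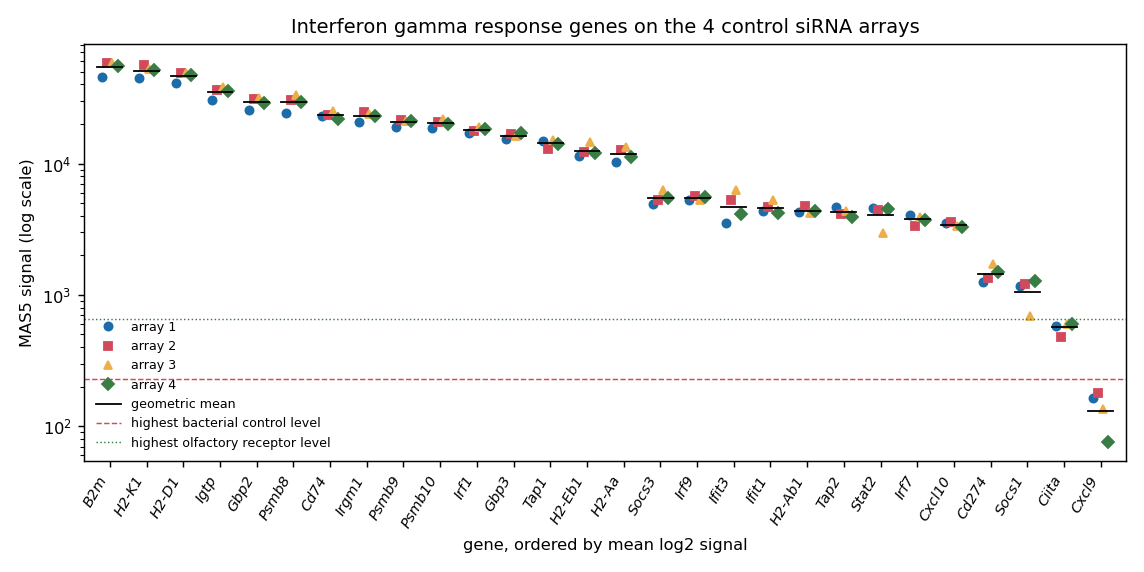
MAS5 signals (log scale) of 28 interferon gamma response genes on each control siRNA array, with the geometric mean as a bar and the highest array's background levels as lines. All but Ciita and Cxcl9 lie above the upper line on every array, and array 1 is the lowest for 16 of the 26 clearly detected genes.

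Interferon acts on promoters through short motifs, of which the interferon-stimulated response element was searched as 2 copies of GAAA parted by any 2 bases and the gamma-activated site as TTCNNNGAA. These were searched on both strands in windows from 250 bases before to 50 bases after each RefSeq start (GRCm38.p6), in which 24 of the 28 genes had an entry. The first was found in 10 of 24 genes (41.7%), against 3.63% of the genes on the array with a window, and the second in 4 of 24 (16.7%) against 8.57%. The stretch of each of the 13 genes with a match is shown because it carries these letters, with matches in capitals, 5′ to 3′ on the strand of the gene. Copies of TTTC parted by 2 bases are the first motif read from the other strand, and positions are counted from the start site, negative before it.
B2m, chr2:122147528-122147577 (+ strand): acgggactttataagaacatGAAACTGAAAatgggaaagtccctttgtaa
Igtp, chr11:58199491-58199551 (+ strand): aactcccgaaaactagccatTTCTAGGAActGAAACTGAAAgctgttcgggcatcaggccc
Gbp2, chr3:142620584-142620633 (+ strand): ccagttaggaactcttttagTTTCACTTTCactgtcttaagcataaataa
Psmb8, chr17:34198078-34198126 (+ strand): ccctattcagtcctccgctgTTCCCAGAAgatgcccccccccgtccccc
Irgm1, chr11:48871415-48871470 (- strand): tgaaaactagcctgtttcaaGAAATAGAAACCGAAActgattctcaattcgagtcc
Irf1, chr11:53769904-53769952 (+ strand): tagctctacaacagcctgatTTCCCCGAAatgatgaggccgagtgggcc
Gbp3, chr3:142559979-142560034 (+ strand): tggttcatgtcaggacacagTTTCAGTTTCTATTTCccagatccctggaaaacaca
Socs3, chr11:117969492-117969540 (- strand): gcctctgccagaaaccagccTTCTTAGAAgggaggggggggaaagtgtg
Ifit3, chr19:34583353-34583436 (+ strand): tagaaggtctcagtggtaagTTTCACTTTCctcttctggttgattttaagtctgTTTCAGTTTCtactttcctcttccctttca
Ifit1, chr19:34640765-34640833 (+ strand): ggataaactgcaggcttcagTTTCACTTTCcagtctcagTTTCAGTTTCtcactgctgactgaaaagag
Stat2, chr10:128270256-128270305 (+ strand): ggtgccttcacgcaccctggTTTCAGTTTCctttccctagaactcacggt
Cxcl10, chr5:92349073-92349122 (- strand): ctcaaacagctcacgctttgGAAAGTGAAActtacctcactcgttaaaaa
Socs1, chr16:10785584-10785639 (- strand): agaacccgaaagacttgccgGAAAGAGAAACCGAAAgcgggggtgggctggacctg
In Igtp the gamma-activated site began at -45 and the response element at -34, so the motifs lay next to each other. Irgm1, Gbp3 and Socs1 each held 2 response element matches that overlap, the matches in Irgm1 beginning at -30 and -24. A match is a description of the letters and shows neither binding nor its effect.

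Genes of DNA replication and mitosis were detected almost throughout. All 28 proliferation genes passed the bacterial level and 27 were clearly detected, against 50.4% of all genes, with a median at the 95.9th percentile. Pcna, the clamp of replicating DNA polymerase, read 37137, 48897, 46579 and 44178 (44198 ± 5086), and the ribonucleotide reductase gene Rrm2 read 32609, 37739, 39837 and 35353. The mitotic kinase gene Cdk1 read 22386, 26448, 31180.1 and 28728, Top2a (topoisomerase II) averaged 18518 ± 1545 and Mki67, the usual proliferation marker, 11399 ± 1827. All D-type cyclin genes were bright, with Ccnd1 given above, Ccnd2 at 22790.4 ± 1078 and Ccnd3 at 14099.6 ± 1108. Their kinase gene Cdk4 was among the steadiest at 17136, 17614, 17703 and 17684, and Tyms, encoding thymidylate synthase, was weakly detected at 575, 623, 506 and 491. Array 3 was highest for 17 of the 27 clear genes and array 1 lowest for 17.

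Inhibitors of the cell cycle were expressed at the same time. Cdkn1a, the p53 target p21, read 28924, 29296, 29793 and 29910.0 (29481 ± 456), with a log2 SD of 0.02. The p53 targets Ccng1 and Mdm2 read 32271, 37463, 40705 and 34562 and 23128, 26274, 28424 and 25251. Cdkn2a, whose locus encodes p16 and p19Arf, read 10219.7, 8886, 7711 and 9808, and its neighbour Cdkn2b (p15) 5062, 5334, 3978 and 4439.7. Cdkn1c (p57), an imprinted inhibitor of differentiating cells, was weakly detected at 446, 453, 602 and 466. All 13 genes on the array passed the bacterial level and 12 (92.3%) were clearly detected, against 64.8% and 50.4% of all genes.

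The brightest genes were those of protein synthesis and the cytoskeleton. Ribosomal protein genes held 35 of the brightest 100 places, actin and tubulin genes 7, annexins, S100 proteins and galectins 6, translation factors 5, oxidative phosphorylation genes 5 and chaperones 4. With the mean over a gene's probe sets in place of its brightest, 23 of the brightest 100 were ribosomal protein genes and 8 were oxidative phosphorylation genes. Without probe sets that may share sequence with other genes, oxidative phosphorylation genes held 8 places, actin and tubulin genes 4 and translation factors 3, so the order of these smaller classes depends on the probe sets used. The brightest signals were those of the ribosomal protein gene Rpl41 (60106, 74617, 74462 and 67126), the elongation factor gene Eef1a1 (56132, 77716, 74347 and 68994) and Lgals1, encoding galectin-1 (59994, 74359.9, 72889 and 68716). They were followed by Vim, Actg1 (cytoplasmic actin, 63396 ± 7169.8), Tpt1 (62982 ± 7153), Rpl7a and Actb (61401 ± 7496). Annexin A1 (Anxa1, 57855 ± 7148), thymosin beta 4 (Tmsb4x, 56293 ± 6868), the chaperone gene Hspa8 (59848 ± 6065) and the nucleosome protein gene Hmgn1 (58198 ± 7818) were also among the first 25. The brightest 100 genes carried 8.36% to 9.90% of the summed signal of the arrays. Of the 25 brightest probe sets, 9 were of the type that can match several transcripts (suffix _x_at), so signal from gene copies may be included.

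A low signal did not show that a transcript was missing. Of 50 ribosomal protein genes, 46 were clearly detected and 4 were near background, namely Rpl39l, Rpl3l, Rps4l and Rps16. The first 3 are tissue-limited relatives, but Rps16 is part of every ribosome and still read 8.70, 13.2, 6.20 and 20.4. Likewise, of 6042 clearly detected genes with several probe sets, 1343 (22.2%) had at least 1 probe set near background.

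Promoter windows differed by signal class. The median CpG ratio, observed over expected from base composition, was 0.827 for the brightest 500 genes and 0.316 for genes near background, and the median GC content was 62.0% and 52.0%. The letters TATAAA stood within 50 bases before the start in 3.13% of the brightest 500 with a window, 1.85% of the other genes above the bacterial level and 6.25% of those near background, so the share did not follow signal in 1 direction, and in 3.30% of all genes on the array. A pyrimidine tract at the start, which marks transcripts of the translation machinery, was counted where a C followed by at least 4 further C or T bases began within 10 bases of the start. It was found in 28 of 44 ribosomal protein genes with a window (63.6%), against 35.4% of all genes with one. Examples from the brightest ribosomal protein genes are shown, from 30 bases before to 20 after the start, with the tract in capitals.
Rpl7a, chr2:26910777-26910826 (+ strand): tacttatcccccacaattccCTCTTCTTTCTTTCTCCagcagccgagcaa
Rpl38, chr11:114668550-114668599 (+ strand): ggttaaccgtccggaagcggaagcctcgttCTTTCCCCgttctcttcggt
Rpl35, chr2:39005112-39005161 (- strand): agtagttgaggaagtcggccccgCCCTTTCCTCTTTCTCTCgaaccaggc
These tracts were 17, 8 and 18 bases long within the search, and that of Rpl7a runs on before the first base searched. Lengths are of the first match in the search. Some other bright ribosomal protein genes had a shorter tract, such as Rps2 with 6 bases. In Rps18 the first match had 5 bases, but a longer run of C and T bases followed it across the start.

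The spread between arrays depended on signal. The median SD of log2 signal was 0.13 for clearly detected genes, 0.29 for weakly detected genes and 0.78 for genes near background. Among the 11798 genes past the bacterial level, 341 (2.89%) had an SD over 0.5 and 8 an SD over 1. The steadiest bright gene was Hsd17b12, a lipid-metabolism dehydrogenase gene, at 12406, 12347, 12139 and 12228 (log2 SD 0.01), followed by the splicing factor genes Srsf11 (12472, 12663, 12723 and 12782) and Wbp11 (11264, 10998, 11017 and 11099). The coat protein gene Copg1 and Csrp1, a cytoskeletal LIM protein gene, had log2 SDs of 0.02 and 0.02.

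The 15 most variable genes were all weakly detected, with the highest array 3.46 to 8.90 times the lowest. Depp1 (a gene regulated by FOXO factors) read 1794, 473, 3533 and 528, and Zap70, a kinase gene of T cells, read 1063, 1879.5, 211 and 1247. Map1b, a microtubule-associated protein gene, was low on array 3 alone (1571, 2031, 302 and 1881), as were Fank1 (858, 1039.5, 144 and 876) and Tnfrsf23 (1284, 1291, 318 and 1438). Array 3 held the lowest value in 11 of these 15 genes and in 196 of the 300 most variable. At the bright end the arrays differed in another way, since array 1 was the lowest for 98 of the brightest 100 genes. For the brightest 1819 genes, the log2 signal of each gene was set against its own mean over the 4 arrays. The median gene lay 0.09 below that mean on array 1 and 0.10 above it on array 3. On array 3 the Tfrc control probe sets that read the 3′ end of the transcript gave 418.5, against 1313 to 1512 on the other arrays, and those that read its 5′ end gave 39.9 against 261.9 to 455.8. The 3′ to 5′ ratio of Tfrc was thus 10.5 on array 3 and 2.88 to 5.51 on the others, while the ratios of the Actb controls (1.12 to 1.21) and Gapdh controls (0.793 to 0.913) were close on all 4. Their part in these differences was not tested.

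**Figure D5:**
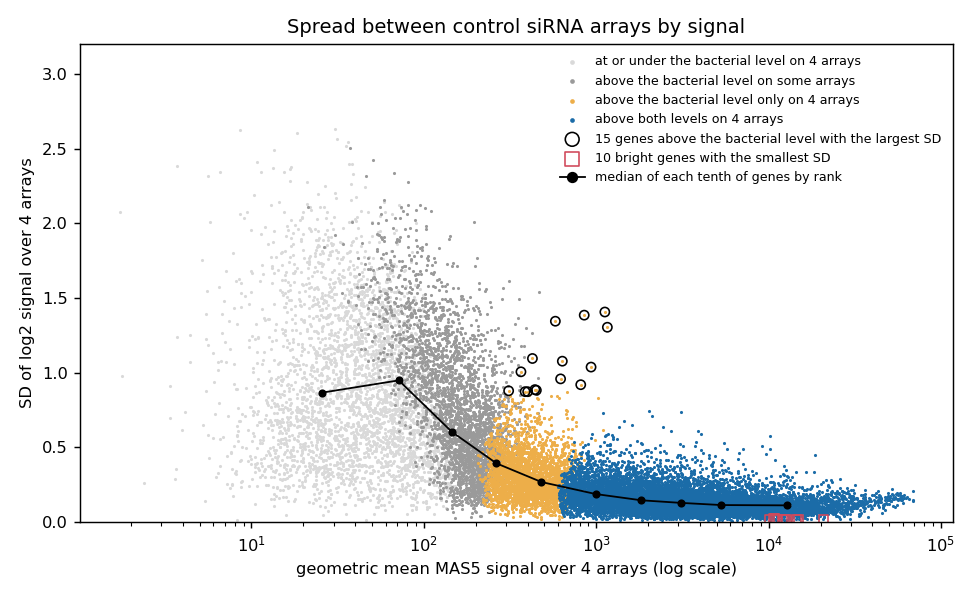
SD of log2 signal over the 4 control siRNA arrays against geometric mean MAS5 signal (log scale) for 18193 genes, coloured by detection, with the medians of 10 equal groups of the ranking as a line. The 15 most variable genes above the bacterial level (circles) have SDs of 0.87 or more and sit far above that line, while the 10 steadiest bright genes (squares) have SDs of 0.02 or less after rounding.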

How the data were processed

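Per the labels' protocols, biotin-labelled RNA of 4 control siRNA samples of LB-22 cells was hybridized to Affymetrix 430_2 arrays, 1 sample on each. The authors deposited 1 linear intensity for each probe set, and MAS5 is the tool in the submitters' processing notes, with its version not given in the sources used. Every value was above 0, and trimming 2% from both ends left the same mean on all 4 arrays, so a common scaling had been applied. Detection calls were not used here, arrays have no read depth, and their number limits the precision.

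From the deposited intensities, 64 array control probe sets were set aside and the platform annotation, updated through Entrez gene IDs to RefSeq (GRCm38.p6), named the rest. Of 45037 probe sets, 34945 had 1 symbol (34741 updated, 204 as annotated), 932 several symbols and 9160 none here. Each of 18193 genes was represented by its brightest probe set by mean log2 signal over the 4 arrays, with no further normalization. A gene was above the bacterial level where it exceeded the highest of 27 Bacillus subtilis control probe sets of the same array on all 4 arrays. Only 1 group is described, so there is no test and no p-value. The procedure was tested on simulated arrays of 18193 genes.

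The genes and the 40 lists were chosen with earlier results of these data known. Values on each array are given for the markers set for the line, the first 4 and the brightest 4 members of a list, the 25 brightest genes, the 15 most variable and the 10 steadiest bright genes. They are also given for other list members, chosen after their values were seen, as were the interferon motifs. Alternatives were other background levels, 3 of 4 arrays, the mean over probe sets, no probe sets with the suffix _s_at or _x_at, quantile normalization, median centring, 16 added before the logarithm, all genes, and leaving out each array. Work was done in Python 3.11.15 with numpy 2.4.6, pandas 2.3.3 and matplotlib 3.10.9. Promoter windows are RefSeq's, by symbol, for 14452 of 18193 genes.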

Additional observations from a re-analysis of the deposited data

Results flagged for a closer look

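Of 182 genes above the bacterial level with values in the lists described, 11 (6.04%) had 1 array set far apart from the other 3 on the log2 scale by Dixon's ratio of that gap to the whole range, at its 95% critical value. This share cannot be set against the 1 in 20 of chance. The genes included the 15 most variable and the 10 steadiest bright genes, chosen by their spread on these same arrays. They also share any difference that runs through a whole array. The array in question was array 3 for 8 genes, array 2 for 2 genes and array 1 for 1 gene.

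Array 3 was lowest for Fank1 at 144.0 (the other arrays 858.5 to 1039.5), Map1b at 301.9 (1571.3 to 2031.3), Tnfrsf23 at 318.2 (1283.6 to 1438.1), Star at 588.0 (775.7 to 801.3), Xist at 384.5 (605.7 to 664.0) and Stat2 at 2953.5 (4436.1 to 4601.5). Array 3 was highest for Cd34 at 2999.1 (2329.3 to 2395.0) and Cdkn1c at 602.2 (446.3 to 466.0). Array 2 was lowest for Krt8 at 1152.3 (1788.1 to 1890.1) and highest for Csf1r at 1718.6 (1173.9 to 1232.5). Array 1 was lowest for Tjp1 at 8652.8 (9091.5 to 9108.9), where the whole range was small. Each value is of the brightest probe set alone. For Stat2, Krt8, Fank1, Star and Xist another probe set was highest on the array named here as lowest. That of Fank1 passed the bacterial level on array 3 alone, at 182.3, and those of Star and Xist were near background. The other Csf1r probe sets were not highest on array 2.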

How the results depend on the processing

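At the olfactory receptor level 2 nephron progenitor, 7 podocyte, 5 ureteric bud and collecting duct, 3 proximal tubule, 0 loop of Henle and distal tubule, 9 kidney stroma and 3 leukocyte genes passed. At 2 times the bacterial level the counts were 2 nephron progenitor, 7 podocyte, 5 ureteric bud and collecting duct and 0 loop of Henle and distal tubule genes. With the mean over probe sets, 23 ribosomal protein genes were among the brightest 100. The cause was not tested. Among the brightest 100, oxidative phosphorylation genes went from 5 to 8 under that mean and without shared-sequence probe sets, which also gave 4 actin and tubulin genes (from 7) and 3 translation factors (from 5), and the mean gave 4 glycolysis and 2 proteasome genes. Counts past background were followed only for the lineage lists named above and the mesothelial, early nephron and endothelial lists. Their other counts, the other class counts among the brightest 100 and the count of all genes stayed within 1.5 times. Lists that were not followed could move more. At the olfactory receptor level striated muscle went from 5 to 0 genes, gonad from 5 to 2 and epithelial junctions from 10 to 6. The median SD was 0.15 as described, 0.23 with median centring and 0.24 over all genes. These counted as unchanged only by a wide limit of 0.127, the SD of that measure between genes, which is nearly as large as the median SD itself. Leaving out each array gave 11915 to 12170 genes above the bacterial level and a median SD of 0.13 to 0.16. Of 223 genes with values, 122 moved by over 1 SD with the mean over probe sets and 24 of 215 without shared-sequence probe sets. With either normalization or any array left out 0 moved, but these settings could hardly show a change. Median centring keeps the mean of a gene, and leaving out 1 of 4 arrays cannot shift the mean of a probe set by 1 SD. Both normalizations also change the control probe sets together with the genes, so counts past the bacterial level were nearly fixed. No paired analysis was possible because only 1 group is described. Detection limits the dim lists, since signals under the olfactory receptor level may be background, and a few probe sets of genes that every cell uses also read there.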
